A study of Homo sapiens with 8 samples.

Results

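The 6 genes of the retinoic acid receptors (RARA, RARB and RARG) and the retinoid X receptors (RXRA, RXRB and RXRG) were followed through a list of PML::RARA binding sites. A peak was taken when it carried the promoter label of one of these genes, or when it carried no gene label and its centre lay within 50 kb of such a peak on the same chromosome. This gave 25 of the 15412 peaks in the list, of which 8 were labelled and 17 were not. RARA had 10 of them, RXRA 9, RARG 4 and RXRB 2, whereas RARB and RXRG had no labelled row and therefore no member.

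The peaks were measured by Cut&Run, in which an antibody brings a nuclease to a bound protein in permeabilised cells or nuclei and the released DNA is sequenced. U937-PR9 is a human monocytic cell line that carries a PML::RARA transgene under a promoter switched on by zinc, on top of its own RARA and PML genes. The series holds 4 groups of 2 replicates, namely induced cells (100 μM ZnSO4 for 5 h) and uninduced cells (water), each profiled with an anti-PML::RARA and with an anti-RARA antibody. The 1 list analysed here holds the anti-PML::RARA peaks of induced cells that were reproducible across both replicates. It gives no signal of uninduced cells, so none is compared here. Per the paper, however, the peaks were called with paired control experiments as background, and the sample titles name the uninduced cells control. A site with similar signal in the control could therefore be missing from the list. It gives 1 value per peak and none per replicate, and the sequencing depth is unknown. No spread between replicates and no test of a difference could therefore be given, and all values describe this list only. A single inducible line with a complex karyotype limits how far the counts speak for leukaemia cells, and copy number was not measured.

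Retinoic acid receptors bind DNA as heterodimers with a retinoid X receptor. In the absence of ligand the pair recruits corepressors and histone deacetylases, and retinoic acid exchanges these for coactivators. Retinoid X receptors also pair with the vitamin D receptor, the PPARs, the liver X receptors and others. The classical response element is a direct repeat of a hexamer close to AGGTCA with a spacing of 5 bases (DR5), and the downstream promoters of RARA and RARB carry such elements, through which the receptors regulate their own family. PML::RARA keeps the DNA-binding and ligand-binding domains of RARA and drives acute promyelocytic leukaemia, in which the chromosome break falls in intron 2 of RARA.

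The DNA below was read from the hg19 genome and is written on the plus strand, 5′ to 3′. The hexamer AGGTCA was searched along with its variants AGTTCA, then GGGTCA and lastly GGTTCA. ETS-type sites were either AGGAAGT or else GGGAAGT. All were searched on both strands and stand in capitals. The first set shows 200 bases around the apex, the midpoint of the interval of largest signal, for the tallest peaks of RARA and RXRA, the RARA peak nearest upstream of an internal start site, and the labelled RARG peak. In the RARA peak beside the internal start site none of these letters occurred in the window.

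Tallest RARA peak, chr17:38478832-38479031: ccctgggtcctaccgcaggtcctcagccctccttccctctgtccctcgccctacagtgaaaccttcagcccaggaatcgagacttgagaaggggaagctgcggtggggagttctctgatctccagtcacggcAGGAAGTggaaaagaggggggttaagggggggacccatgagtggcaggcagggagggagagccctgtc
RARA peak at the internal start site, chr17:38474313-38474512: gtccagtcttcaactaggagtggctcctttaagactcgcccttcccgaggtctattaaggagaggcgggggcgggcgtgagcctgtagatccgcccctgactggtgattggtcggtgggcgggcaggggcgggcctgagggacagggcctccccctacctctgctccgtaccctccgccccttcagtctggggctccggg
Tallest RXRA peak, chr9:137288103-137288302: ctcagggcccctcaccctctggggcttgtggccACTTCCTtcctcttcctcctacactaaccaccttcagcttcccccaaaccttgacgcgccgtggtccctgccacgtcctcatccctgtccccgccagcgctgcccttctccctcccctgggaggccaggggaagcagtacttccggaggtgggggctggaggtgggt
Labelled RARG peak, chr12:53614787-53614986: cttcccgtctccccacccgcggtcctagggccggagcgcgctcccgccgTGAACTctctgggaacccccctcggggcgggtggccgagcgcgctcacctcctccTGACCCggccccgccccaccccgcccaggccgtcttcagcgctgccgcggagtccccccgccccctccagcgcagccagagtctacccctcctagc

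The second set shows the DR5 elements found within 500 bp of a receptor start site, with 5 flanking bases on each side. They are shown because none of them lay in a peak.

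RARA, behind the start of the downstream isoform, chr17:38497900-38497926: aggcgAGTTCAgcgagAGTTCAgccgc
RARB, before the canonical start, chr3:25469696-25469722: ggtagGGTTCAccgaaAGTTCActcgc
RXRB, at an internal start, chr6:33163243-33163269: cctgcAGGTCActcaaAGGTCAcagct

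The third set shows the only pairs of hexamers, at any spacing up to 8 bases, inside the 25 receptor peaks.

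RARA peak from 38476164, chr17:38476273-38476297: aagagAGGTCAggaGGGTCAgactg
RARG peak from 53610881, chr12:53611396-53611424: ctccgAGGTCAatctgtgAGGTCAaggcc
RXRB peak from 33128510, chr6:33129296-33129320: cttcgGGGTCAgggGGTTCAgcggg

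Of the 6 receptor genes, 4 carried a promoter label (66.7%, Wilson 95% interval 30.0 to 90.3), beside 30.0% of 20090 protein-coding gene symbols. By GENCODE start sites, 4 of the 6 had an apex within 1 kb of a start of their own, beside 39.3% of 20098 protein-coding genes. Any start site of a gene sufficed for this. The 6 genes had from 4 (RXRG) to 20 (RARB) start sites, a number not matched in the background. RARA, RARG and RXRA passed through internal starts only. The 4 genes were the same by both definitions, namely RARA, RARG, RXRA and RXRB. An apex inside the gene body was found in 3 of 6, beside 29.3% of genes. With 6 genes, none of these shares stood clearly apart from its background, and the intervals cover the counting of genes only.

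RARA held more peaks in its gene body than any of its paralogs, although RXRA came close. Of the members at or above the list's median height of 25, RARA and RXRA had 5 each. RARA (ENSG00000131759, plus strand of chromosome 17 from 38465432 to 38513895) held 10 apexes in 48.5 kb, and at least 10 were found in 21 of 20098 protein-coding genes, or 0.104%. The 20 other genes with as many were all longer. The shortest of them was BCOR, which encodes a corepressor partner of BCL6, with 12 apexes in 127.5 kb, and their median length was 275 kb. Per 10 kb of gene RARA held 2.06 apexes, more than 98.1% of genes, although 379 other genes, among them short genes, were as dense or denser. RXRA (ENSG00000186350, plus strand of chromosome 9 from 137208944 to 137332431) held 9 apexes in 123.5 kb, or 0.729 per 10 kb, which was above 92.5% of genes. Of the 28 other genes with at least 9 apexes, 4 were shorter than RXRA and RARA was the shortest. RARG (ENSG00000172819, minus strand of chromosome 12 from 53604351 to 53626764) held 2, or 0.892 per 10 kb. The apex counts of RARB, RXRB and RXRG were 0.

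**Figure D1:**
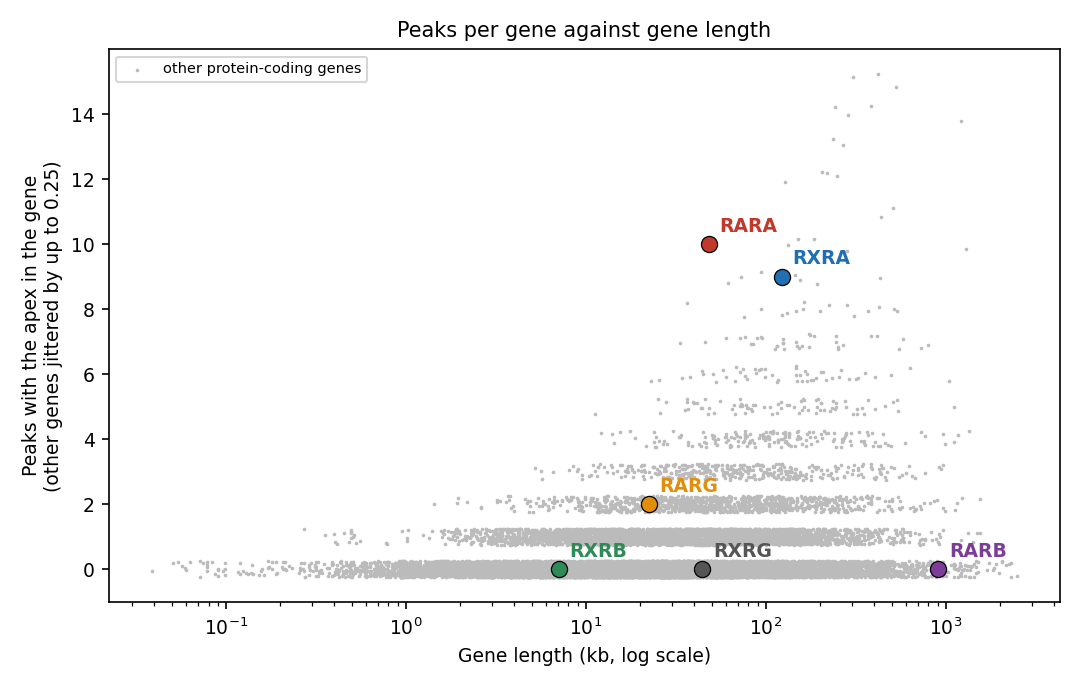
Number of peaks with the apex in a gene (vertical axis) against gene length in kb (horizontal axis, log scale) for protein-coding genes, with the 6 receptor genes in colour. RARA, with 10 peaks in 48.5 kb, lies to the left of every other gene with at least 10 peaks, and RARB has 0 peaks although it is the longest of the 6.

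The 10 RARA peaks stood in a row of 27279 bp within the first introns. The gaps between them had a median of 1311 bp (715 to 3519 bp). The 9 RXRA members were spread over 91237 bp with a median gap of 7312 bp. These are not the 9 apexes in the RXRA gene. They include the peaks from 137335013 and 137347852 beyond its 3′ end, and leave out those in the gene from 137232329 and 137235235. Of the RARA apexes, 8 lay in intron 1 (21570 bp) and 2 in intron 2 (16919 bp), the intron broken in acute promyelocytic leukaemia. From exon 3 to the end of the gene, which is the stretch of RARA retained in PML::RARA, there was no peak. The last peak ended 9803 bp before exon 3.

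The highest and widest of all 25 receptor peaks was an unlabelled RARA peak in intron 1, from 38478023 to 38480945. Its height, the largest signal within the peak, was 53, which ranked 425 of 15412 (higher than 96.8% of the list). With 2923 bp it ranked 241 by width (wider than 98.4%) and its total signal was 41930. This single peak held 38.4% of the total signal of 109072 in RARA. Its apex lay 311 bp upstream of a RARA start at 38479243, whose transcript has no defined coding sequence in the annotation. The window printed above holds 1 ETS-type site.

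The second highest receptor peak was a labelled RARA peak from 38473713 to 38475008. Its height of 41 ranked 1727 and its width of 1296 bp ranked 3681. The apex lay 120 bp upstream of the internal start site at 38474533. The other labelled RARA peaks were unlike each other. That from 38486263 to 38487533 had a height of 34 (rank 3401) and a width of 1271 bp (rank 3840), and it reached over the first coding exon, of which it covered 63 coding bases. The labelled peak from 38472002 to 38472528 had a height of 16, rank 14278, and was thus among the lowest peaks of the list. Its width of 527 bp ranked 11594. A promoter label therefore did not mark the strongest RARA signal.

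The 6 remaining RARA peaks were unlabelled and ranged in height from 18 to 32 and in width from 442 to 1038 bp. Nearest to the 5′ end of the gene, the peak from 38467486 had a height of 32 (rank 4034) and a width of 812 bp (rank 7897). The next, from 38470830, reached 19 (rank 11488) over 457 bp (rank 12637). The third, from 38476164, reached 20 (rank 10691) over 1038 bp (rank 5595), and it holds the pair of hexamers with a spacing of 3 bases printed above, 245 bp from its apex. Downstream of the tallest peak no height exceeded the 34 of the labelled peak at exon 2. The unlabelled peak from 38482257 had a height of 27 (rank 6155) and a width of 907 bp (rank 6888). In intron 2, the peak from 38490135 reached 18 (rank 12401) over 669 bp (rank 9630) and that from 38494323 reached 22 (rank 9138) over 442 bp (rank 12832). By height, 5 of the 10 RARA peaks were at or above the list's median of 25, and by width 5 were at or above its median of 829.5 bp. RARA thus had many peaks of ordinary size and 1 large one.

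Neither the canonical RARA start nor that of the downstream isoform had a peak. By contrast, the labelled peak of height 41 covered the internal start at 38474533. The transcript from that start is annotated as protein-coding, with the same first coding base (38487471) as the canonical transcript. The canonical start at 38465432 was 2646 bp from the nearest apex. The start at 38497640, which opens the downstream isoform with its own coding first exon, was 3058 bp from the nearest apex, and the DR5 element that follows it by 265 bp was 3141 bp from the edge of the nearest peak.

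**Figure D2:**
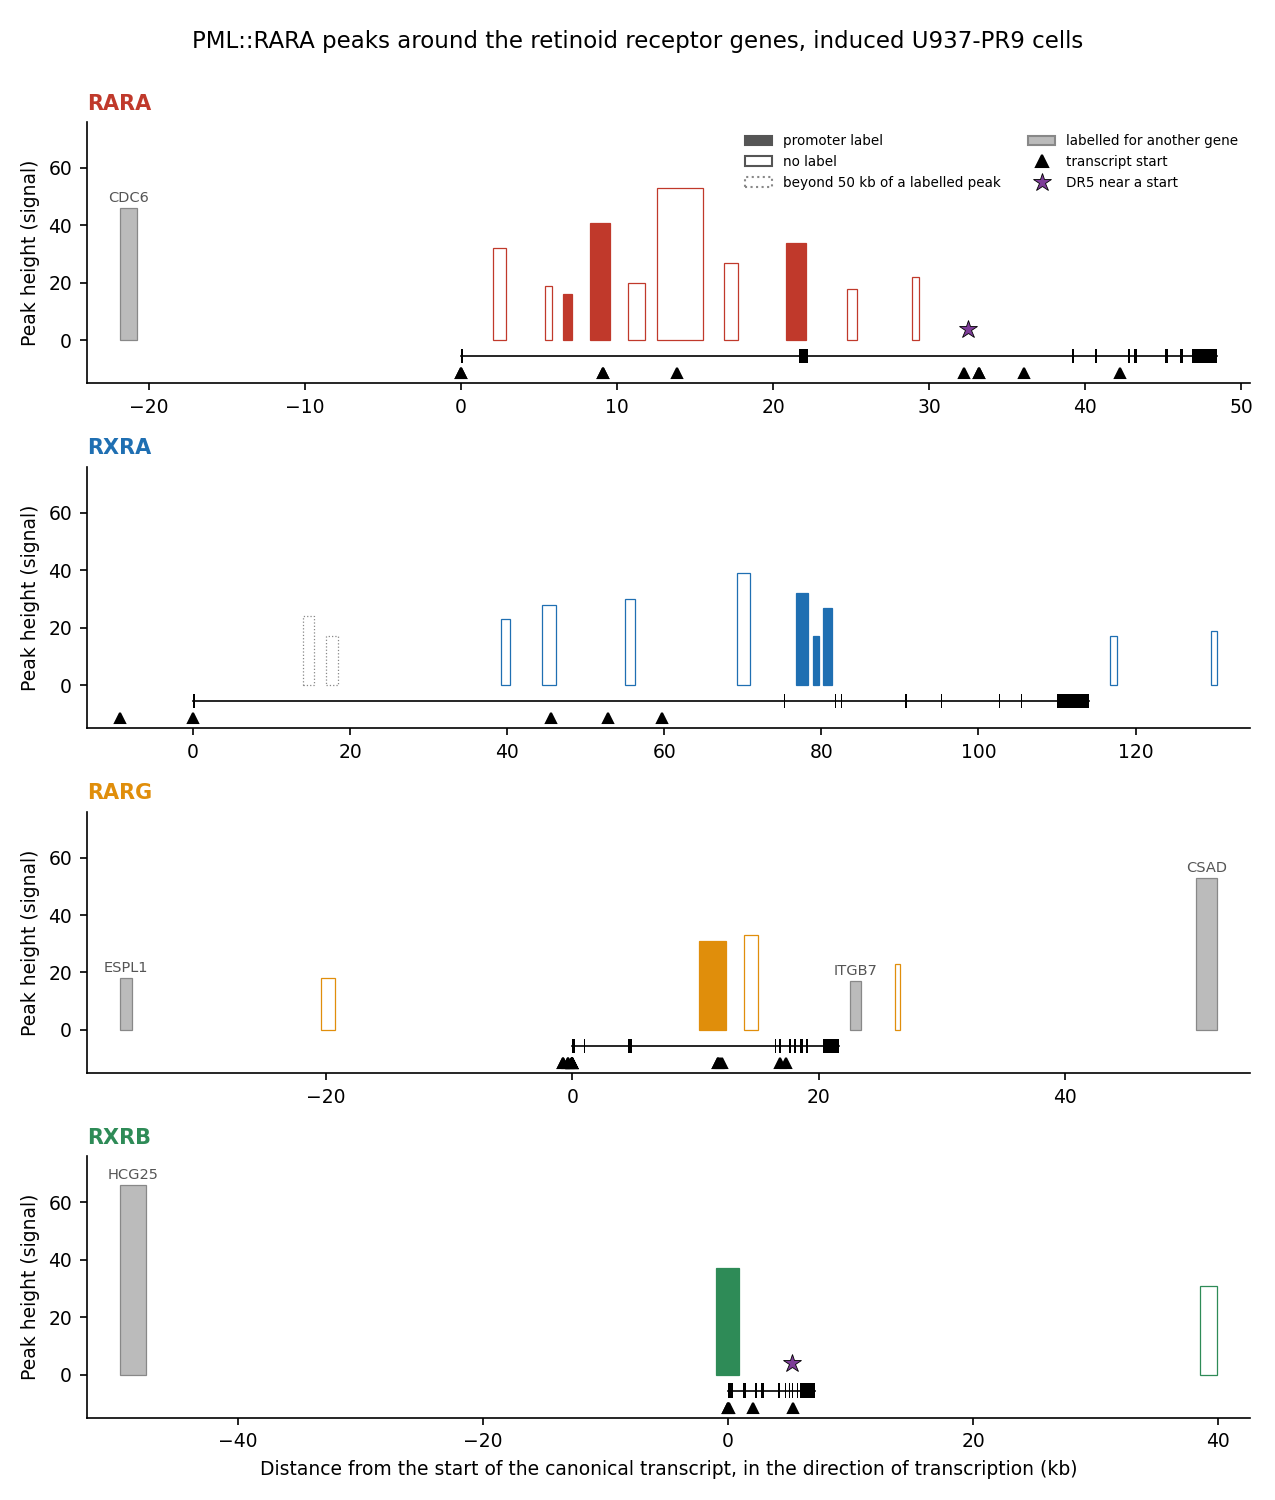
Peaks around RARA, RXRA, RARG and RXRB, as bars whose width is the peak's extent and whose height is its largest signal, against the distance in kb from the start of the canonical transcript in the direction of transcription. The key gives the fill of each kind of peak, and black boxes on the line are exons. The 10 RARA peaks crowd between the first exon and the DR5 element (star), while exon 3 and all later RARA exons lie beyond the last peak.

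RARG, the receptor paralog best known from skin, had its labelled peak at an internal start and not at the 5′ end of the gene. The peak, from 53613511 to 53615685, was the second widest receptor peak at 2175 bp (rank 765). Its height was 31 (rank 4397) and its total signal 26025, or 71.7% of the signal in the gene. The apex lay 690 bp upstream of an internal start at 53614197, in intron 3 of the canonical transcript and 11106 bp from the canonical start. The peak covered 267 coding bases. The window printed for it is rich in GC (76.5%) and holds 2 hexamers that did not form a pair.

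A further RARG peak followed in the same intron, from 53610881 to 53612075, with a height of 33 (rank 3709) and a width of 1195 bp (rank 4355). It holds the pair of AGGTCA hexamers in direct repeat with a spacing of 7 bases, 75 bp from its apex. The other RARG members lay in neighbouring genes. That from 53599422 fell in ITGB7, an integrin subunit gene, with a height of 23 (rank 8433) and a width of 422 bp (rank 13102). That from 53645223 lay 34 bp from the start of MFSD5, with a height of 18 (rank 12401) and a width of 1115 bp (rank 4965), although it carried no label. Both were counted by distance alone.

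RARB had no peak in a gene of 910046 bp. RARB (ENSG00000077092, plus strand of chromosome 3 from 24729378 to 25639423) is the receptor gene most used as a readout of retinoic acid. The nearest peak lay 9045 bp outside its upstream end, 19 high and 701 bp wide. On the downstream side the nearest peak was 66109 bp away, was 29 high and 1482 bp wide, was labelled MIR4442 and lay 150 bp from a start of TOP2B, a topoisomerase gene. The canonical RARB start at 25469754 was 236796 bp from the nearest apex. The DR5 element 37 bp before this start was 235815 bp from the nearest peak.

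RXRA, the most broadly expressed of the heterodimer partners, had its peaks away from its 5′ end. The canonical start at 137218301 was 14534 bp from the nearest apex, and that apex belonged to 1 of 2 peaks in the gene that lay more than 50 kb from a labelled RXRA peak and so were no members. These reached 24 over 1342 bp and 17 over 1500 bp. In order along the gene, the first member, from 137257486, had a height of 23 (rank 8433) and a width of 1166 bp (rank 4563). The second, from 137262706, had a height of 28 (rank 5666) and a width of 1813 bp (rank 1476), and its apex fell on an RXRA start site at 137263817 (0 bp). It nevertheless had no label.

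The tallest RXRA peak was also unlabelled. It ran from 137287502 to 137289252 and had a height of 39 (rank 2104), a width of 1751 bp (rank 1618) and a total signal of 21789, or 21.8% of the 100087 in the gene. Between it and the start at 137263817 stood the peak from 137273330, with a height of 30 (rank 4820) and a width of 1175 bp (rank 4502). The total signal over RXRA was thus close to that over RARA, but less of it came from 1 peak and it covered 9.84% of the gene against 21.3% of RARA.

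The labelled RXRA peaks formed a cluster in intron 2. They started at 137295065, 137297199 and 137298534, and the nearest GENCODE start of RXRA lay 18065, 19622 and 21127 bp from their apexes. Their heights were 32, 17 and 27 (ranks 4034, 13294 and 6155). Their widths were 1533, 785 and 1082 bp (ranks 2393, 8221 and 5244). Beyond the 3′ end of RXRA stood the unlabelled peaks from 137335013, with a height of 17 (rank 13294) and a width of 989 bp (rank 6053), and from 137347852, with a height of 19 (rank 11488) and a width of 871 bp (rank 7245). Neither apex lay in a protein-coding gene.

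RXRB was the only receptor gene whose labelled peak lay at the start of the gene. RXRB (ENSG00000204231, minus strand of chromosome 6 from 33161365 to 33168442) had a peak from 33167576 to 33169436 with a height of 37 (rank 2529) and a width of 1861 bp (rank 1348), the third widest receptor peak. The apex was 115 bp upstream of the RXRB start and 46 bp from a start of SLC39A7, a zinc transporter gene that is transcribed in the opposite direction, and it fell within SLC39A7. Which of the 2 genes this peak belongs to cannot be told apart from its position. The peak also covered 235 coding bases of RXRB. Its other member, from 33128510, lay in no protein-coding gene and 6617 bp from the nearest start, that of the collagen gene COL11A2, with a height of 31 (rank 4397) and a width of 1382 bp (rank 3181).

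RXRG (ENSG00000143171, minus strand of chromosome 1 from 165370159 to 165414592), the most tissue-restricted of the partners, had no peak in the gene. The nearest lay 2692 bp beyond its 3′ end, 16 high and 191 bp wide (ranks 14278 and 15231), among the smallest of the list. Its canonical start at 165414363 was 46961 bp from the nearest apex.

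Across the 25 peaks, the median height was 27 (range 16 to 53), beside 25 (13 to 87) in the whole list, and 14 were at or above the list's median. The widths stood further out, with a median of 1115 bp (422 to 2923) beside 829.5 bp, and 18 of 25 at or above it. The difference in width lay mainly in the unlabelled peaks. Their median was 1038 bp (n = 17) beside 634 bp for the 8243 unlabelled peaks of the list, and 14 of the 17 were wider than that. Labelled receptor peaks had a median width of 1284 bp (n = 8) beside 1108 bp for 7169 labelled peaks. By gene, the median heights were 24.5 for RARA, 27 for RXRA, 27 for RARG and 34 for RXRB, so that RARA was the lowest despite its tallest peak.

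**Figure D3:**
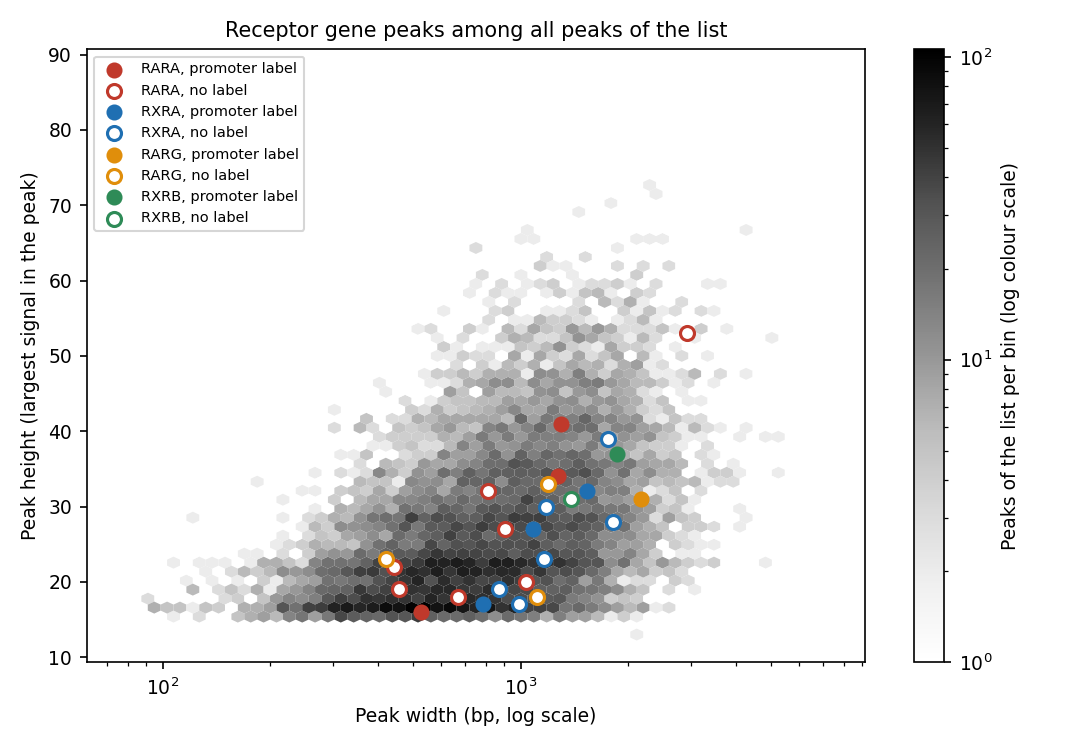
Peak height (vertical axis) against peak width in bp (horizontal axis, log scale) for all 15412 peaks, with grey shading for the number of peaks per bin on a log scale and the 25 receptor gene peaks in colour. Filled circles carry a promoter label and open circles do not. The tallest and widest receptor peak is the unlabelled RARA peak of height 53 and width 2923 bp, and the others lie within the bulk of the list.

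The promoter labels and the GENCODE start sites picked different receptor peaks. Of the 8 labelled peaks, 3 had the apex within 1 kb of a start of their own gene, namely 1 each in RARA, RARG and RXRB. A further 2 apexes within 1 kb of an own start belonged to unlabelled peaks, the tallest RARA peak and the RXRA peak at 137263817. The labels were made from another annotation, and its part in this was not tested.

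Among all 62 start sites of the 6 genes, 4 pairs of hexamers were found within 500 bp, 3 of them DR5. Each DR5 belonged to a different receptor gene, RARA, RARB or RXRB, and 0 of the 4 pairs lay inside a peak. Such a window held a DR5 at 300 of 146028 start sites of all genes (0.205%) and any pair at 5.48%. These shares count start sites, whereas the receptor counts are of elements, and the same element can lie near several start sites. The receptor counts can therefore not be compared with these shares. The RXRB element lay 4312 bp from the nearest peak and 5178 bp from the canonical RXRB start. The internal start beside it belongs to a transcript annotated as a retained intron, without a coding sequence. The remaining pair was an inverted repeat at a further RARB start. These matches are letters in the genome, and their absence from a peak says nothing about binding below the threshold of the list.

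Inside the receptor peaks, 0 of 25 windows of 400 bp around the peak centre held a DR5, which with 25 peaks allows a share of up to 13.3% (Wilson 95% interval), beside 0.227% in the whole list. A pair at any spacing stood in 2 of 25 windows (8.0%, 2.22 to 24.97), beside 2.52% in the list and 4.47% in windows 2 kb upstream of all peaks. At least 1 hexamer stood in 48.0% (30.0 to 66.5), beside 54.8% and 65.4%. For DR5, pairs and single hexamers alike, the interval of the receptor peaks included the share of the list. Direct repeats of any spacing up to 8 bases stood in 2 of 25 windows (8.0%, 2.22 to 24.97), beside 1.73%, an interval above the list's share. That was also so over whole peaks (4.17 to 29.96%, beside 3.77%), but not around the apex (0.710 to 19.5%, beside 1.80%). In windows 2 kb upstream of the receptor peaks they again stood in 2 of 25. ETS-type sites, the motif of PU.1 and its relatives, were found in 16.0% (6.40 to 34.7) of windows at the centre, beside 29.4% in the list. Around the apex they were found in 11 of 25 (interval 26.7 to 62.9%), beside 32.0% of the list, so that the side on which the receptor peaks fell changed with the window. Median GC content was 59.8% in the receptor windows, 59.0% in the list and 47.0% upstream of all peaks. In windows 2 kb upstream of the receptor peaks themselves it was 58.0%. Those windows held a pair in 2 of 25 (8.0%), at least 1 hexamer in 56.0% and an ETS-type site in 16.0%. For pairs and ETS-type sites these shares equal those at the receptor peak centres.

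**Figure D4:**
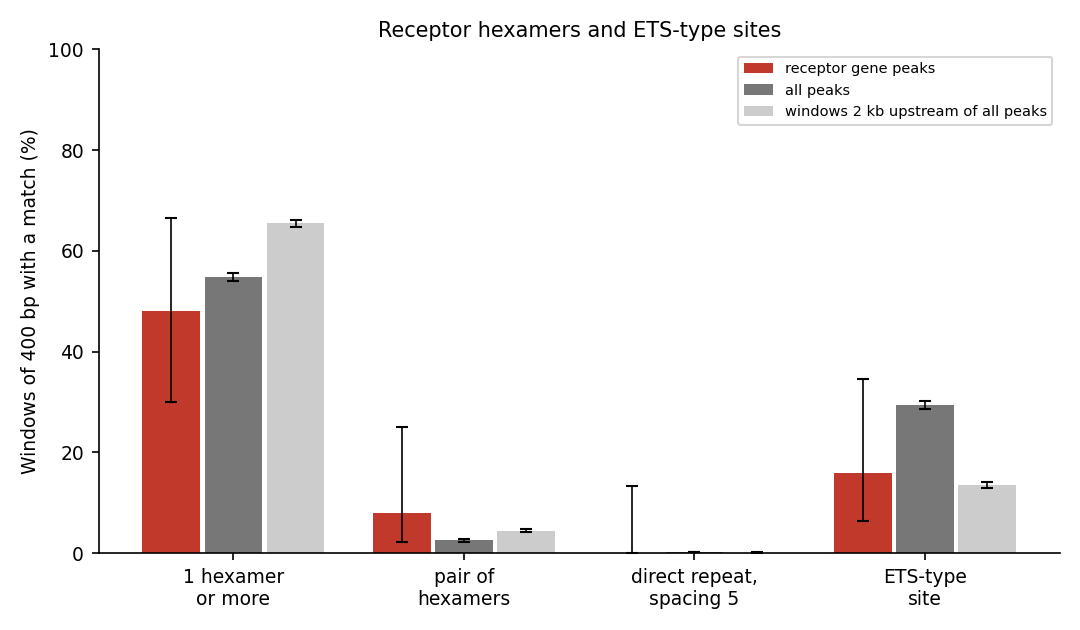
Share of 400 bp windows with a match (vertical axis, percent) for the receptor hexamer, pairs of hexamers, DR5 and ETS-type sites, in the 25 receptor gene peaks, all 15412 peaks and windows 2 kb upstream of all peaks. Error bars are Wilson 95% intervals, and those of the receptor peaks include the share of the whole list for every motif shown.

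Labelled peaks of other genes within 50 kb of a receptor row were higher than most receptor peaks in 3 of 5 cases. HCG25, a noncoding RNA gene 48503 bp from the labelled RXRB peak, had a height of 66, higher than 99.5% of the list. CSAD, an enzyme gene of taurine synthesis near RARG, reached 53, as high as the tallest RARA peak, and CDC6, a replication licensing gene 28142 bp from the nearest labelled RARA peak, centre to centre, reached 46. ITGB7 and ESPL1, the separase gene, reached 17 and 18.

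The genes with which the receptors work were counted in the same way. Of 40 genes in 4 lists, 14 did (35.0%), beside the 30.0% of all protein-coding symbols. Among 7 corepressor genes, 6 were labelled, all except TBL1X. NCOR1, a corepressor of unliganded receptors, had 2 labelled peaks of height 30 each. The peak of SIN3A, a scaffold of histone deacetylase complexes, was far larger than any receptor peak, 77 high and 6203 bp wide, each above 99.9% of the list. HDAC3, TBL1XR1 and GPS2 reached 19, 20 and 18.

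Among 13 partners of the retinoid X receptors, 5 were labelled, which was 38.5%. VDR reached 24, PPARD 28 and NR1H2 22. The orphan receptor gene NR4A1 had 3 labelled peaks of 18, 22 and 25, and NR4A2 had 1 of 19. THRA, THRB, PPARA, PPARG, NR1H3, NR1H4, NR1I2 and NR1I3 had no label. PPARG nevertheless held 6 apexes and NR1H3 held 2, each with an apex within 1 kb of an own start, and THRA and PPARA held 1 each, farther from a start. Of 7 coactivator genes, NCOA2 (height 36) and EP300 (26) were labelled. The list of retinoid supply and breakdown had the fewest, 1 of 13, which was DHRS3, a retinal reductase gene, with a height of 28. STRA6, the CRABP genes and the CYP26 genes that degrade retinoic acid had no label. ALDH1A2 and RDH10 had none either, but each had an apex within 1 kb of an own start, and ALDH1A2 held 5 apexes. By GENCODE start sites, 21 of the 40 genes had an apex within 1 kb, beside 39.3% of all genes, and the spread between the lists was smaller than by label. The counts were 6 of 7 corepressors (6 by label), 5 of 7 coactivators (2 by label), 7 of 13 partners (5 by label) and 3 of 13 genes of retinoid supply and breakdown (1 by label). The lists are small, and no difference between them was tested.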

How the data were processed

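Per the paper's methods, the authors used Trimmomatic for trimming, Bowtie2 for alignment to hg19, and Samtools and Bedtools to drop duplicate and blacklisted reads. SEACR (norm union, with the paired control) called the peaks, and the authors kept those reproducible across 2 replicates at an IDR below 0.05. The deposited values are a total signal and a score per peak, and the score is the largest signal in it (called height here). Their content was taken from the values, since in all 15412 peaks the total was below height times width. Whether they come from 1 replicate or a pool, and their scaling, is not given in the sources used here. Other columns hold positions, widths and gene labels, made by the authors from UCSC known genes where the apex overlapped a promoter. No column of another sample was used.

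Ranks count the peaks with a larger value plus 1, and ties share a rank. Genes, exons and start sites were those of GENCODE release 44 mapped to GRCh37, and sequences came from the GRCh37 genome, the build of the peaks. In 34 peaks, 0 of them members, the apex interval lacks its end and its start was used. Motif searches were tested on simulated sequence. Intervals are Wilson 95% intervals and cover counting only, and neighbouring peaks are not independent.

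Named were the 6 receptors, genes labelled within 50 kb of a row of theirs or at their start sites, and 4 lists of partner genes in a set order, with the 3 highest and 3 widest members in full. The values of 1 gene of these lists are not reported here. BCOR, the hexamer search at start sites and the genes at flanking peaks were chosen after their values were seen. The members and lists were chosen with earlier results of these data known. Alternatives were other distances for membership, merged neighbours, leaving out peaks below the median height, other start-site definitions, other measures of size and other motif windows. Analyses used Python 3.11.15, numpy 2.4.6, pandas 2.3.3, scipy 1.17.1, pysam 0.24.0 and matplotlib 3.10.9.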

Additional observations from a re-analysis of the deposited data

How the results depend on the processing

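Of 17 alternatives over 5 results, 15 stayed within 1.5 times the main count or within the interval of the main value. Only peaks at or above the list's median height left 14 of 25 receptor peaks and 5 of 10 RARA peaks, so both counts hold many low peaks. RXRA also had 5 such members, so RARA did not lead among them. The number of receptor peaks was 19 with 25 kb, 30 with 100 kb and 28 with all apexes in a receptor gene or within 10 kb of it. It was 20 with neighbours under 1 kb apart merged, which left 8 RARA peaks. The count of receptor genes with a promoter peak was 4 under every definition run, although RXRA passed by label and by start site through different peaks. The median receptor peak was above 56.7% of the list by height, 59.2% by total signal, 45.6% by mean signal per base and 67.8% by width. The share of peaks with a pair of hexamers ranged from 4.0% to 12.0% over the windows tried. It was 4.0% in 200 bp at the centre, beside 1.01% in the list, and 4.0% around the apex, beside 2.59%. Over whole peaks it was 12.0%, beside 5.77%, so the share rose with the length searched in the list too. No paired analysis was possible because values of single replicates are not in the list analysed, which also kept either replicate from being left out. Depth is unknown, so a gene without a peak is one without a listed peak.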
